A study of Mus musculus with 2 samples.

Results

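Atf4, Atf5, Atf3, Ddit3, Ppp1r15a, Ppp1r15b and Trib3 are genes of the integrated stress response, and most of them are known for short upstream open reading frames (uORFs) in front of the coding sequence. The 7 genes were chosen by name from the 28095 gene names on a mouse oligonucleotide array, with earlier results of these data known. They were represented by 9 probes, since Ppp1r15b and Trib3 had 2 probes each and the other genes had 1.

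The arrays measured where each mRNA sat on a sucrose gradient in NIH3T3 cells, an immortalised mouse fibroblast line grown in medium with 10% serum. Control cells were untreated, and stressed cells received 10 µM thapsigargin for 3 h. Thapsigargin blocks the calcium pump of the endoplasmic reticulum and so causes stress in that organelle. RNA of the polysome fractions (P) was labelled with Cy3 and RNA of the pooled free and monosome fractions (FM) with Cy5, and 3 preparations of each condition were pooled on 1 array. There was therefore 1 array per condition, no replicate and no test between conditions, and every difference below compares these 2 arrays.

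Stress in the endoplasmic reticulum activates the kinase PERK, which phosphorylates the initiation factor eIF2 and lowers translation of most mRNAs. On mRNAs such as Atf4, ribosomes that have read a first uORF then pass over an inhibitory one and reach the coding sequence, so that these mRNAs are translated when others are not. Ddit3, Atf3, Ppp1r15a and Trib3 are also transcribed more under this response, and the phosphatase subunit encoded by Ppp1r15a closes the loop by directing the removal of phosphate from eIF2.

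The probe sequences show what was hybridised, and 4 of them are given for the mRNAs that differ most in the results below. All were 60 bases long and are printed in the sense of the mRNA. The Ddit3 probe lay on 2 exons, because its 60 bases spanned 304 bases of the genome.
Atf4: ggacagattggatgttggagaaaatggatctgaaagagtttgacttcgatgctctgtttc
Ddit3: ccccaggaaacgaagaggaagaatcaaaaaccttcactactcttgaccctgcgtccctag
Ppp1r15a: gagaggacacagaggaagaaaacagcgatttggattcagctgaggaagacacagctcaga
Trib3 upstream probe: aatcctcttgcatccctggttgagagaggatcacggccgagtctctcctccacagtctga

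In mm9 (NCBI build 37) coordinates the Atf4 probe (NM_009716) lay at chr15:80087079-80087138 on the plus strand and the Ddit3 probe (NM_007837) at chr10:126732518-126732821 on the plus strand. The Ppp1r15a probe (NM_008654) lay at chr7:52779582-52779641 and the Atf5 probe (NM_030693) at chr7:52067718-52067777, both on the minus strand. The Trib3 probes (NM_175093) lay at chr2:152164025-152164084 and chr2:152163355-152163414 on the minus strand, and they are called upstream and downstream here by their order along the mRNA. The Ppp1r15b probes (NM_133819) lay at chr1:135033393-135033452 and chr1:135035870-135035929 on the plus strand. The Atf3 probe (NM_007498) lay at chr1:192994547-192994606 on the minus strand. The probes were designed on mRNAs and so lay in exons, and the split of these exons into coding and untranslated parts was not analysed here.

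For polysome association the polysome signal was divided by the free plus monosome signal and put on a log2 scale (log2 P/FM), so that 0 marks equal signal in both. The study kept the RNA proportions of both fractions for labelling. More RNA was in polysomes in control cells and in the free plus monosome pool under stress. P and FM signals thus also reflect these unequal inputs. Each fraction had the same dye on both arrays and the signals were not dye-normalized. The 0 of log2 P/FM and the shares of signal in polysomes thus also hold any difference between the dyes. Abundance is given as A, for which the log2 signals of the fractions were averaged. Probes with A above 4.5 on both arrays were compared, which left 17173 probes and 8 of the 9 probes of the set (6 of 7 genes). The Atf3 probe did not pass.

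As a rough scale for error, the SD of the change between spots of the same probe on an array was 0.10 on the log2 scale (median over 118 probes). Between different probes of the same gene it was 0.36 for the change in log2 P/FM and 0.19 for the change in A (median over 4046 genes). Neither figure holds the variation between cultures, which 1 array per condition cannot show.

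All 8 probes were on the polysome side under thapsigargin, with log2 P/FM between 0.84 and 1.83, whereas in control cells they ran from -1.74 to 1.97. The range over the 8 probes was 3.71 in control cells and 0.99 under stress, and their SD was 1.39 and 0.38. Over all probes the SD of log2 P/FM was 1.21 and 1.15, so the narrowing of the set was not seen across the array. Under the 9 other ways of scaling or correcting the signals, the range over the 8 probes was 2.71 to 3.89 in control cells and 0.96 to 1.30 under stress. Of these, centring and spike-in scaling shift all probes of an array alike and could not change the range. Keeping spots flagged as outliers left it unchanged, and the scanner software's log ratio gave the same range as its processed signals.

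The median of the 8 probes went from -0.48 to 1.34, and the median change of the single probes was 1.75. Over all 17173 probes the medians were 0.22 in control cells and -0.29 under thapsigargin, and the median change was -0.61 with a range from the 5th to the 95th percentile of -2.53 to 1.82. Log2 P/FM was higher under stress at 6 of the 8 probes and at 33.8% of all probes.

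**Figure D1:**
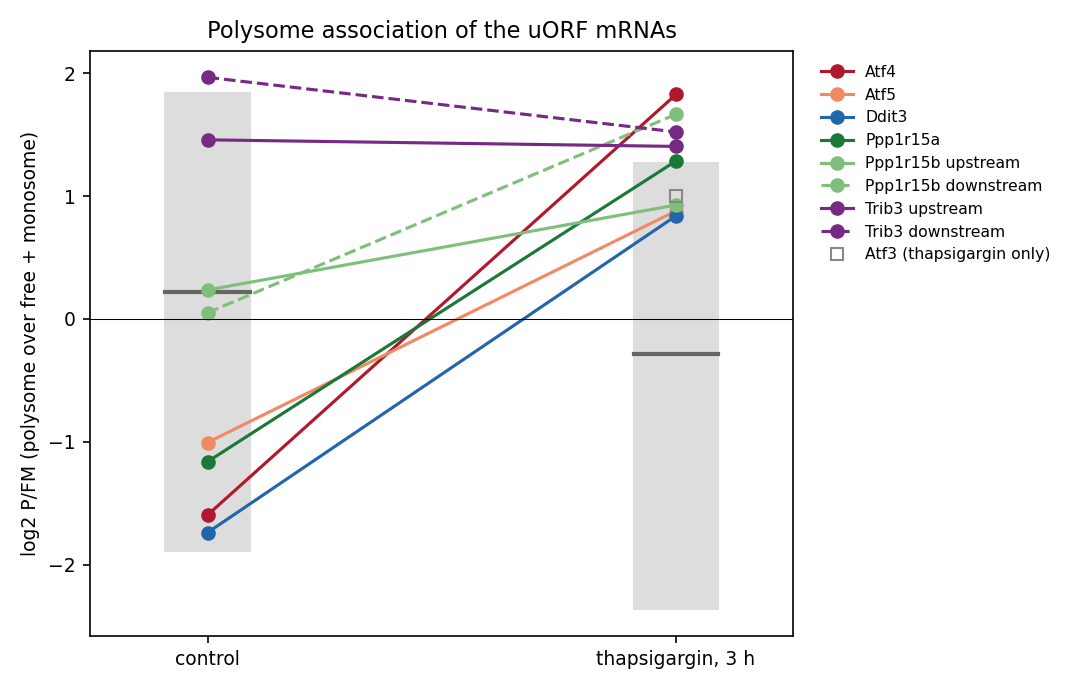
Log2 P/FM (y axis) of the 8 probes that passed the abundance filter, on the control and the thapsigargin array, with 1 line per probe, a solid line for an upstream or sole probe and a dashed line for a downstream probe. Grey bars span the 5th to 95th percentile of all 17173 probes with a dark line at their median, and the open square is Atf3, measured above background only under thapsigargin. The probes fan out from -1.74 to 1.97 in control cells and lie between 0.84 and 1.83 under stress.

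Atf4 encodes the bZIP transcription factor at the centre of the response. Its polysome signal was 648 in control cells and 3673 under thapsigargin, and its free plus monosome signal was 1959 and 1035. Log2 P/FM was -1.60 in control cells and 1.83 under stress, a change of 3.42 or 10.7-fold. Of the Atf4 signal, 24.9% was in polysomes in control cells and 78.0% under stress.

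The Atf4 mRNA thus lay at percentile 6.95 of all probes in control cells and at percentile 98.8 under stress, and its change lay at percentile 99.8. The larger polysome signal (5.67-fold) came with a 1.89-fold smaller free plus monosome signal. A was 0.79 higher, at percentile 77.7, and the median change in A over all probes was 0.37.

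Atf5 encodes a related bZIP factor. Its polysome signal was 6339 in control cells and 13113 under thapsigargin, and its free plus monosome signal was 12727 and 7130. Log2 P/FM was -1.01 in control cells and 0.88 under stress, a change of 1.88 or 3.69-fold, and the share of signal in polysomes was 33.2% and 64.8%. As with Atf4, the polysome signal was larger and the other signal smaller.

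The 2.07-fold larger polysome signal of Atf5 and its 1.78-fold smaller signal elsewhere nearly cancelled in A, which differed by 0.11. This difference lay at percentile 31.2 of all probes, and it was -0.23 with the scanner software's processed signals and -0.39 after centring each array on its median. Among the probes compared, a smaller free plus monosome signal under stress was found for Atf4 and Atf5, under every scaling, and under some scalings also for the Ppp1r15b probes described later and, marginally and only with normexp background correction, for Ppp1r15a.

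Ddit3 encodes CHOP, a transcription factor tied to cell death under prolonged stress. Its polysome signal was 228 in control cells and 7306 under thapsigargin, and its free plus monosome signal was 763 and 4083. Log2 P/FM was -1.74 in control cells, the lowest of the set, and 0.84 under stress. The change was 2.58 or 5.97-fold, and the share of signal in polysomes was 23.1% and 64.1%.

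For Ddit3 both fractions held more signal, 32.0-fold in polysomes and 5.35-fold in the free plus monosome pool. A was 3.71 higher or 13.1-fold, at percentile 99.9 of all probes. In bulk RNA a higher A does not tell more mRNA per cell from more cells that hold it, and since 300 ng of RNA entered each labelling in total, A is relative to the total RNA.

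Atf3 encodes a bZIP factor induced by many kinds of stress. On the control array both of its signals were not well above background: the polysome signal was at the background floor of 0.5 and the free plus monosome signal was 10.0. Under thapsigargin the signals were 132 and 66.2, both well above background, and log2 P/FM was 1.00. The Atf3 mRNA was thus also on the polysome side under stress, and its control value of log2 P/FM was not measured.

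For Atf3 the difference between the arrays is a bound. Against the 1st percentile of the control signals that were well above background, 19.7 in polysomes and 24.2 in the free plus monosome pool, the polysome signal was at least 6.71-fold higher and the free plus monosome signal at least 2.74-fold higher under thapsigargin. This limit was set after the values were seen, because the lowest signals that carried the flag were at the background floor themselves.

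Ppp1r15a encodes GADD34, the inducible subunit that brings protein phosphatase 1 to eIF2. Its polysome signal was 62.8 in control cells and 862 under thapsigargin, and its free plus monosome signal was 140 and 353. Log2 P/FM was -1.16 in control cells and 1.29 under stress, a change of 2.45 or 5.45-fold. The share of its signal in polysomes was 30.9% and 70.9%.

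Like Ddit3, Ppp1r15a had more signal in both fractions, 13.7-fold in polysomes and 2.52-fold elsewhere. A was 2.55 higher or 5.88-fold, at percentile 99.7 of all probes. Its log2 P/FM went from percentile 11.9 to percentile 95.2.

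Ppp1r15b encodes CReP, the constitutive counterpart of GADD34. At the upstream probe the polysome signal was 73.8 in control cells and 131 under thapsigargin, and the free plus monosome signal was 62.7 and 68.9. At the downstream probe the polysome signal was 253 and 857, and the other signal was 244 and 270.0. Both probes thus gave a larger polysome signal, except that the upstream one was lower (-0.48) with normexp. The free plus monosome signal hardly differed, by 0.14 on the log2 scale at each probe, and it was lower at both with normexp (-1.48 and -0.64), the processed signals (-0.32 and -0.49), centring (-0.61 at each) and spike-in scaling (-0.88 and -0.87).

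Log2 P/FM of Ppp1r15b was 0.24 and 0.05 in control cells, near the median of all probes, and 0.93 and 1.67 under stress. The changes were 0.69 and 1.62, with a mean of 1.15 ± 0.65 (SD, n = 2 probes). The Ppp1r15b probes differed more from each other in this change than the probes of a gene typically did (0.36).

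In A, the Ppp1r15b probes were 0.48 and 0.95 higher, at percentiles 57.7 and 85.6. At the upstream probe the difference in A was -0.98 after normexp background correction and -0.013 after centring.

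Trib3 encodes a pseudokinase that is induced by Atf4 and Ddit3 and restrains both of them. At the upstream probe the polysome signal was 179 in control cells and 1812 under thapsigargin, and the free plus monosome signal was 65.3 and 685. At the downstream probe the polysome signal was 1211 and 12646, and the other signal was 310 and 4403. Both fractions thus had more signal by similar factors, 10.1-fold and 10.4-fold in polysomes and 10.5-fold and 14.2-fold elsewhere.

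In control cells Trib3 had the highest log2 P/FM of the set, 1.46 and 1.97, and the values under thapsigargin were 1.40 and 1.52. The changes were -0.05 and -0.44, with a mean of -0.25 ± 0.28 (SD, n = 2 probes), and they were above 0 at the upstream probe in 7 and at the downstream probe in 6 of the 9 other scalings and background corrections. Relative to the median change of all probes, the Trib3 changes were 0.56 and 0.16. The share of signal in polysomes was 73.3% and 79.6% in control cells and 72.6% and 74.2% under stress. With normexp, log2 P/FM at the upstream Trib3 probe was 0.03 in control cells and 1.33 under stress.

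The abundance of Trib3 separated the arrays more than its position did. A was 3.36 and 3.61 higher, with a mean of 3.48 ± 0.17 (SD, n = 2 probes), and both probes lay at percentile 99.9 of all probes.

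**Figure D2:**
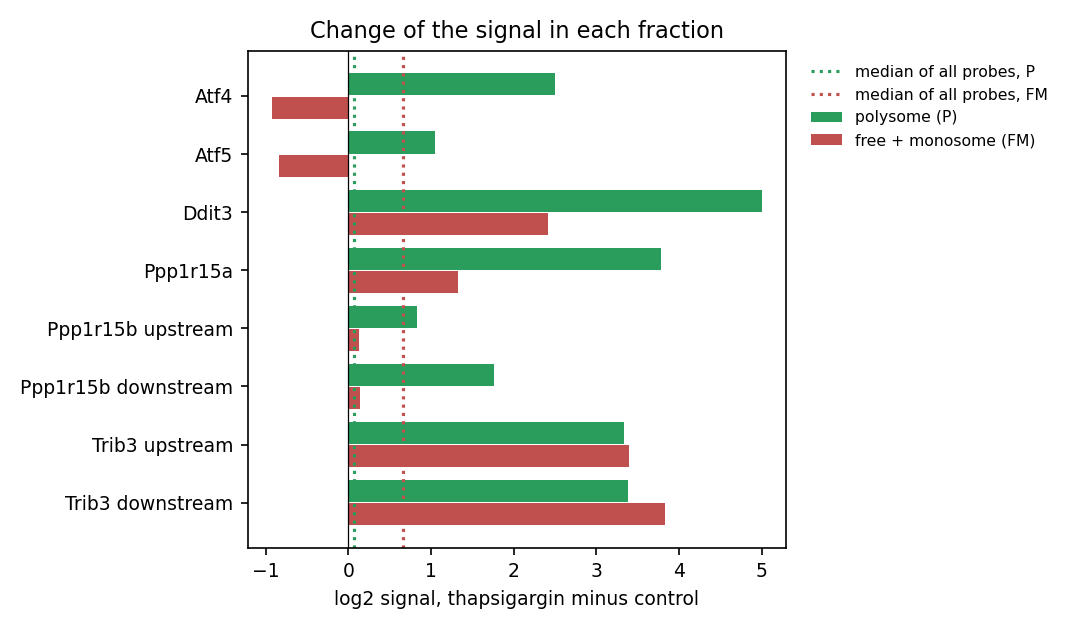
Difference in log2 signal between thapsigargin and control (x axis) of each of the 8 probes (y axis), with a green bar for polysomes and a red bar for the free plus monosome pool. Dotted lines mark the medians of all probes, 0.07 for polysomes and 0.67 for the free plus monosome pool. The red bars point left for Atf4 and Atf5 and, under some other scalings, would do so for Ppp1r15b, and the pairs of bars are of similar length for Trib3.

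The 2 ways in which P/FM became larger can be read across the array. Of the 17173 probes, 2424 were higher by 1 or more in log2 P/FM under stress. Among these, 1427 (58.9%) had more polysome and less free plus monosome signal, as Atf4 and Atf5 did, and 908 (37.5%) had more signal in both, as Ddit3, Ppp1r15a and the downstream Ppp1r15b probe did. Over all probes these shares were 11.7% and 40.8%.

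Log2 P/FM was higher by 1 or more at 5 of the 8 probes of the set (Atf4, Atf5, Ddit3, Ppp1r15a and the downstream Ppp1r15b probe) and at 14.1% of all probes. Translation-inducible mRNAs, with a control value of no more than 0 and a change of at least 1, numbered 4 of the 8 probes (Atf4, Atf5, Ddit3 and Ppp1r15a) and 12.7% of all probes. The downstream Ppp1r15b probe missed this class by its control value of 0.05. The study itself singled out Atf4, Atf5, Ddit3, Ppp1r15a and Atf3 with these arrays in view, so the place of the 4 in the class is not independent of that choice.

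Resistant mRNAs, which had values of at least 0.8 with and without stress, were the 2 Trib3 probes among the 8 and 3.32% of all probes. With normexp the upstream Trib3 probe was at 0.03 in control cells, outside this class. Sensitive mRNAs, with a change of -0.8 or lower, were 0 of the 8 probes and 44.4% of all probes. None of the 8 probes thus behaved like the largest class of mRNAs on the array, and Atf3 was not compared.

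A was higher by 1 or more at 4 of the 8 probes (Ddit3, Ppp1r15a and both of Trib3) and at 12.7% of all probes. A and log2 P/FM were both higher by 1 or more at 2 of the 8 probes (Ddit3 and Ppp1r15a) and at 3.57% of all probes. The set thus held mRNAs with a change mainly in position (Atf4, Atf5), mainly in abundance (Trib3) and in both.

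**Figure D3:**
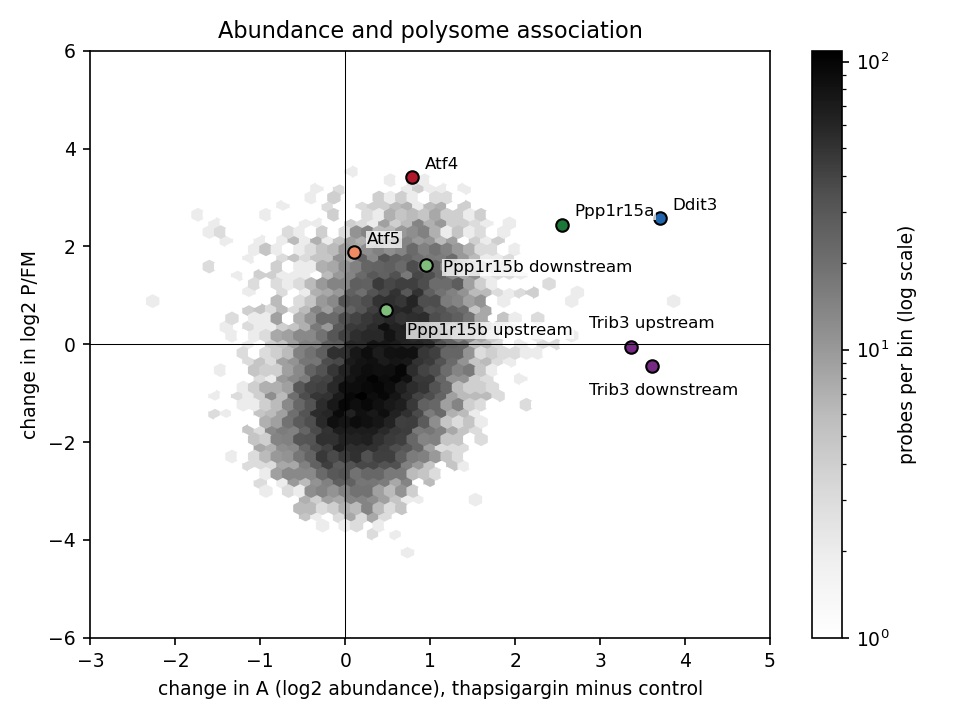
Change in log2 P/FM (y axis) against change in A (x axis), thapsigargin minus control, with grey hexagons counting all 17173 probes on a log scale and coloured points for the 8 probes of the set. Atf4 stands at the top of the cloud at 3.42, Ddit3 and Ppp1r15a lie to its upper right, and the Trib3 probes lie to its far right near 0, where their sign depends on the scaling.

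With the probes of a gene averaged, the order of the change in log2 P/FM was Atf4 (3.42), Ddit3 (2.58), Ppp1r15a (2.45), Atf5 (1.88), Ppp1r15b (1.15) and Trib3 (-0.25). The SD of a difference between 2 probes, taken from the spread between probes of a gene, was 0.51. The gap between Ddit3 and Ppp1r15a (0.13) was smaller than this, and that between Ppp1r15a and Atf5 (0.56) was close to it. The gaps after Atf4 (0.84), after Atf5 (0.73) and before Trib3 (1.40) were larger. The Ppp1r15b probes lay at 0.69 and 1.62 with an SD of 0.65, so the gap between Atf5 and Ppp1r15b is less certain. With normexp the downstream Ppp1r15b probe was at 1.72 and Atf5 at 1.87. The order of Ppp1r15a and Atf5 depended on the scaling. After loess the changes were 2.72 for Ppp1r15a, 3.63 for Atf5 and 3.84 for Ddit3. With the processed signals Ppp1r15a was at 2.65 and Atf5 at 3.23.

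In control cells the order of log2 P/FM was Trib3 (1.71), Ppp1r15b (0.14), Atf5, Ppp1r15a, Atf4 and Ddit3. Among the last 4, no gap between neighbours exceeded the 0.45 that the spread between probes gives for control values. Under stress no gap between neighbours exceeded the corresponding 0.42, while the ends, Atf4 (1.83) and Ddit3 (0.84), lay 0.99 apart.

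In A, Ddit3 (3.71) and Trib3 (3.48) were not separated beyond the spread of 0.27, and Ppp1r15a (2.55) followed at a larger gap. Atf4 (0.79) and Ppp1r15b (0.72) were again not separated, and Atf5 (0.11) stood last.

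The other genes of the pathway were read from lists put together for this purpose, with a gene's probes averaged and 11936 genes passing the same filter. Across these genes log2 P/FM was higher by 1 or more for 12.4% and lower by 1 or more for 40.1%, with a median change of -0.67. A was higher by 1 or more for 11.4% and lower by 1 or more for 1.23%, with a median change of 0.35.

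The mRNAs of the machinery that phosphorylates, binds or dephosphorylates eIF2 lay mostly on the other side of 0 from the uORF genes. Of 17 listed, 16 passed the filter, 1 was higher by 1 or more in log2 P/FM and 11 were lower. The median change was -1.19, which became 1.36 under spike-in scaling and was below 0 under the other scalings. Over all probes the median change was -0.61 and, under spike-in scaling, 1.94, so the list lay below it in both. The higher gene was Impact, an inhibitor of the eIF2 kinase GCN2, at -0.35 in control cells and 0.66 under stress, and its change of 1.01 was 0.96 without background subtraction and 0.92 with median signals, below the threshold of 1. The lowest change was that of Ppp1ca, the catalytic subunit that GADD34 and CReP bring to eIF2, which was at 1.61 in control cells and -1.60 under stress.

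The catalytic subunit and its eIF2-directing partners lay on opposite sides, with a change in log2 P/FM of -3.21 for Ppp1ca against 2.45 for Ppp1r15a and 1.15 for Ppp1r15b. Eif2ak3, which encodes PERK, was at 0.24 in control cells and 0.57 under stress, and its A was 1.13 higher, or -0.61 with normexp. In A, 3 of the 16 genes were higher by 1 or more and 0 lower, and the values ran from -0.26 (Ppp1ca) to 1.36 (Dnajc3, a PERK inhibitor of the endoplasmic reticulum).

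Genes known as targets of Atf4 and Ddit3 were often higher in abundance. Of 30 listed, 27 passed, and A was higher by 1 or more for 14 and lower for 0. Their median change in A was 1.10, or 0.44 with normexp, 0.61 after centring and 0.70 with the processed signals. The largest was Herpud1, a component of the degradation pathway of the endoplasmic reticulum, whose A was 4.19 higher while its log2 P/FM was 0.67 in control cells and 0.66 under stress, a difference that was 1.70 after loess. The lowest change in A was that of Psat1, an enzyme of serine synthesis, at -0.16, or 0.10 after spike-in scaling. Over all probes the median change in A was 0.63 under that scaling.

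In log2 P/FM, 1 of the 27 targets was higher by 1 or more and 9 were lower, with a median change of -0.37. It turned to 0.49 with either set of dye-normalized values, 0.44 with loess, 0.14 with centring and 2.18 with spike-in scaling. Over all probes the median change was -0.61 and, in the same order, -0.19, -0.08, -0.10 and 1.94, so the list lay above it in each. The higher gene was Nupr1, a small chromatin regulator, at -1.62 in control cells and 0.33 under stress. Asns, asparagine synthetase, was at 1.91 in control cells and 0.46 under stress, with A higher by 1.10. Its change of -1.44 turned to 0.39 with the processed signals and 0.29 after loess. It was 1.11 after spike-in scaling, below the median of all probes there. Trib3, itself a target of Atf4, resembled Herpud1 in that a large difference in A came with a small one in log2 P/FM.

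The mRNAs outside the set that are known for uORFs read under eIF2 phosphorylation came closer to it. Of 11 listed, 9 passed, 4 were higher by 1 or more in log2 P/FM (Ibtk, Ifrd1, Slc7a1 and Slc38a2) and 1 was lower, with a median change of 1.00. Ibtk (1.14) was below the threshold without background subtraction (0.91). The change of Slc7a1 (1.20) had an SD of 1.08 over its 2 probes, and Ifrd1 (1.77) was not well above background in every channel of its probes. Slc38a2, an amino acid transporter, had the largest change, at -2.03 in control cells and -0.01 under stress. The lower gene was Cebpb, a bZIP factor whose mRNA also holds a uORF and which is in the list of targets as well. Cebpb was at 0.98 in control cells and -1.29 under stress. Its change of -2.27 turned to 0.28 after spike-in scaling, below the median of 1.94 over all probes there.

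Of these 9 genes, A was higher by 1 or more for 5 and lower for 1, with a median change of 1.03, or -0.27 with normexp. The ends were Slc7a1, a cationic amino acid transporter, at 1.77 and Slc35a4, whose mRNA encodes a nucleotide sugar transporter, at -1.07. Slc7a1 had more signal in both fractions under stress as processed here, while its change in A was 0.062 with normexp, and Slc38a2, like Atf4, had less in the free plus monosome pool (a log2 change of -1.47).

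**Figure D4:**
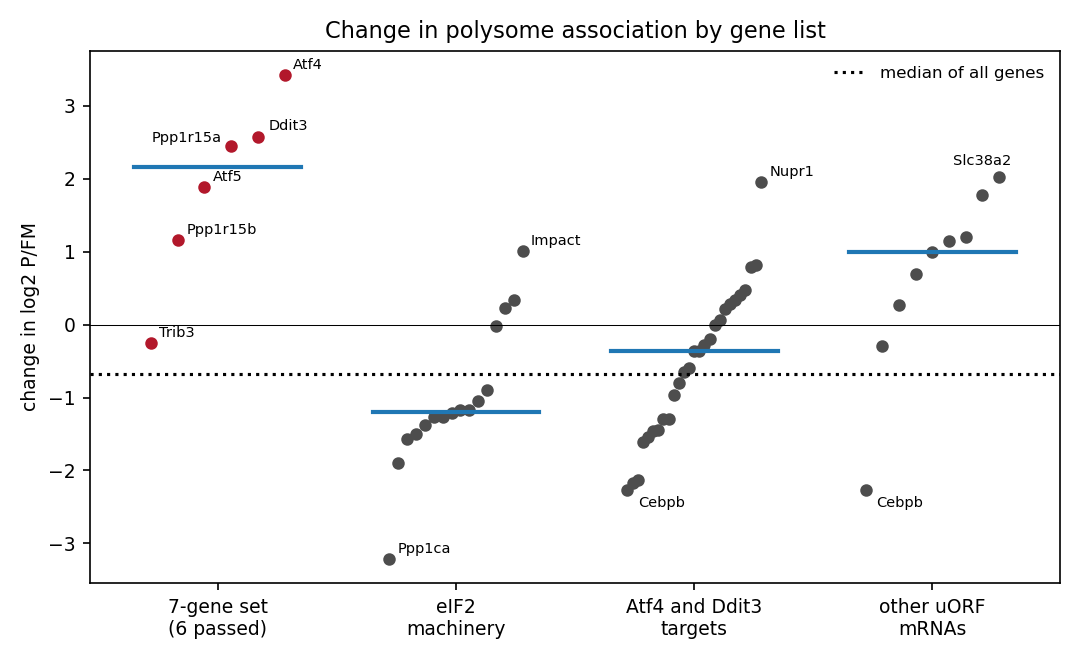
Change in log2 P/FM (y axis), thapsigargin minus control, of the 6 genes of the set that passed the filter (red) and of the genes of 3 pathway lists (grey), 1 point per gene. Blue lines are list medians: -1.19 for the eIF2 machinery, -0.37 for targets and 1.00 for other uORF mRNAs. The first turns positive under spike-in scaling, where the median of all probes is 1.94, and the second under several scalings. The dotted line is the median of all genes, -0.67. Trib3 is the lowest of the red points, and its sign depends on the scaling.

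The mRNAs most like Atf4 were sought among the 9269 probes that had A above 7 on each array and no dim channel, by the Euclidean distance over log2 P/FM in control cells, log2 P/FM under stress and the change in A. The nearest 5 of other genes were Fat1 at a distance of 0.40, Nid1 (0.51), Smg1 (0.51), Zfp445 (0.52) and Usp34 (0.54), and none of them belonged to the set. Fat1, which encodes a large cadherin, was at -1.26 in control cells and 2.04 under stress. Of the set, Atf5 ranked 156 at a distance of 1.31 and Ddit3 3412 at 3.08. The downstream Ppp1r15b probe ranked 404 at 1.66 and the downstream Trib3 probe 8362 at 4.55. Ppp1r15a, Atf3 and the upstream probes of Ppp1r15b and Trib3 were under the limit on A in control cells and were not ranked.

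The promoters of the set differed in the motifs they held. RefSeq promoters (GRCm38.p6, 250 bases before the start to 50 after it) were matched for 6 of the 7 genes with 7 promoters, and both strands were searched. TTNCATCA, the letters of the C/EBP-ATF response element bound by Atf4 and Ddit3 with C/EBP partners, was in the promoters of Atf3 and Trib3 and in 3.97% of all 32851 promoters. TGACGT, the letters of the cAMP response element bound by ATF and CREB factors, was in those of Atf3 and Ppp1r15a and in 7.51% of all.

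TATAAA was in the promoters of Trib3 and Ppp1r15a and in 13.6% of all. The endoplasmic reticulum stress element, read as CCAAT and CCACG 9 bases apart, was in 0 of the 7 promoters and in 0.119% of all. Windows are printed for the response element matches of Atf3 and Trib3 and for the cAMP element match of Ppp1r15a, with the matched letters in capitals, and the other matches are only counted. A match describes letters and not a bound site.
Atf3, chr1:191183410-191183469, minus strand: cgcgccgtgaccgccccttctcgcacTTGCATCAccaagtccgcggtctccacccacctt
Trib3, chr2:152344028-152344057, minus strand: ttagctcaggtTTACATCAgccgggcgggg
Ppp1r15a, chr7:45526269-45526306, minus strand: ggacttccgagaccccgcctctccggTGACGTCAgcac

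Counted from the annotated start, the capitals begin at -110 in Atf3, at 14 in Trib3 and at -12 in Ppp1r15a. Trib3 and Atf3, which share the response element, had A higher by 3.48 and at least 2.10. Ddit3, with A higher by 3.71, held none of these 4 motifs in its window.

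**Figure D5:**
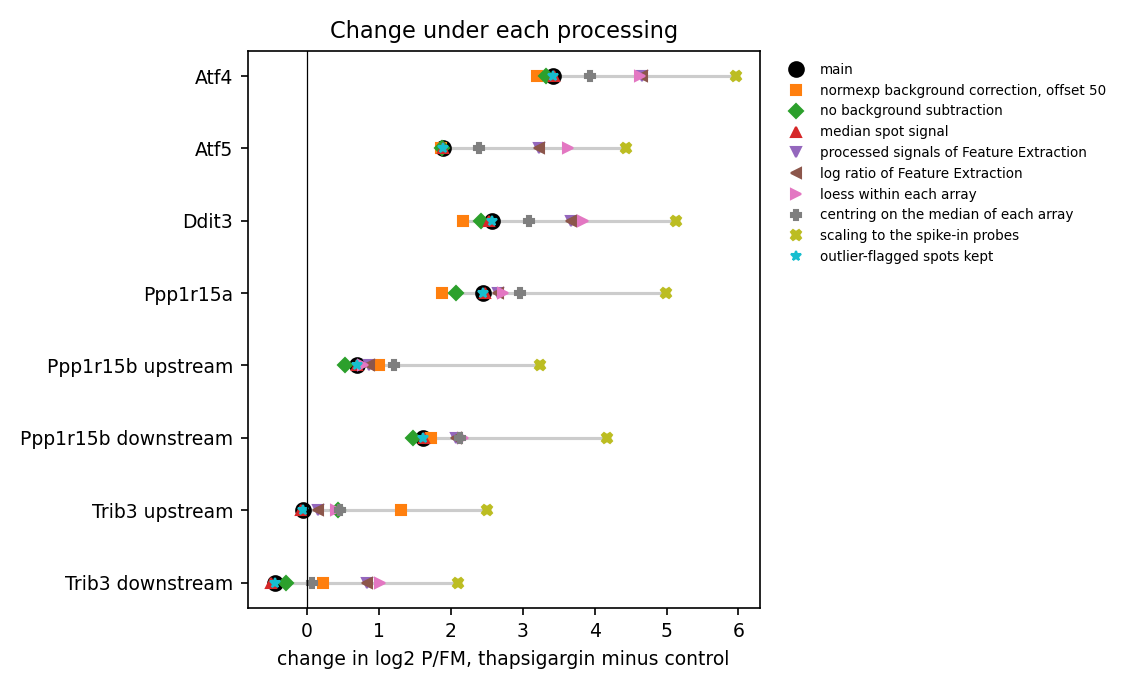
Change in log2 P/FM (x axis), thapsigargin minus control, of the 8 probes (y axis) under the processing used here (black circle) and 9 other scalings or background corrections (coloured symbols), with grey lines spanning them. The changes of Atf4, Atf5, Ddit3, Ppp1r15a and Ppp1r15b were above 0 under all of them, from 0.53 to 5.97, and those of the Trib3 probes lay on both sides of 0.

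Across these 9 alternatives and the averaging of probes, the change in log2 P/FM was 3.20 to 5.97 for Atf4, 1.87 to 4.43 for Atf5, 2.16 to 5.13 for Ddit3 and no less than 1.88 for Ppp1r15a. The highest values came from scaling to the spike-in probes, 10 probes for added RNAs. Their log2 P/FM was -0.40 on the control and -2.95 on the thapsigargin array, and the median change of the single spike-in probes was -2.44. The median change of all probes was 1.94 under that scaling, against -0.61 without it.

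The arrays themselves differed as a whole in both fractions. Mean signals were 634 and 463 in polysomes and 948 and 1397 in the free plus monosome pool for control and thapsigargin. The fractions were labelled in the RNA proportions found in each condition, so the input of each fraction differed between the arrays by design. Between 42.5% and 46.3% of spots were well above background in each channel, and 0 were saturated. All 8 fibroblast markers were well above background in control cells, against 1 of 4 epithelial (Krt8), 1 of 2 leukocyte (Cd68) and 0 of 3 endothelial ones.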

How the data were processed

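NIH3T3 polysome and free plus monosome RNA was hybridised to 2-colour Agilent arrays, with 1 array per condition on 1 slide read in 1 scan. Per the file headers, the scans were turned into deposited intensity values with Feature Extraction 10.7.1.1, without normalization. The same deposited files hold dye-normalized processed intensity values, a log10 value of Cy5 over Cy3 and flags of spot quality. The authors deposited log2 values of Cy3 over Cy5 as well, not normalized. Of these, 99.99% on the control and 100% on the thapsigargin array equalled the values computed here within 0.001, which settles their scale and direction. Their column medians were 0.21 and -0.36.

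Here each spot's median local background was taken from its mean signal and results below 0.5 were set to 0.5, the method named in the study. No normalization was applied. Outlier spots (295, 0.680%) were left out, spots of a probe were averaged, and probes of a gene were averaged only where stated. The number of arrays limits the precision.

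The 7 genes, the lists and the thresholds were chosen with earlier results of these data known. Besides the 7 genes, the text names the genes with the largest rise and fall in log2 P/FM and in A of each list among those well above background, Eif2ak3, Asns, and the 5 probes nearest to Atf4. Ibtk and Ifrd1 were named after their values were seen. The alternatives were normexp with offset 50 and loess (limma 3.58.1, R 4.3.3), no background subtraction, median signals, the processed signals and log ratio of Feature Extraction, centring, spike-in scaling, outlier spots kept, other limits on A, dim spots left out, averaged probes and the authors' table. The summed signal in place of A, which gave a median change of 1.88, and the limit for Atf3 were added after the data were seen. The steps were tested on simulated data with Python 3.11.15. No promoter sequence was matched for Ppp1r15b.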

Additional observations from a re-analysis of the deposited data

How the results depend on the processing

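With 1 array per condition, no library was left out. No paired analysis was possible because each condition had a single array and no value came from a test.

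The number of inducible probes among the uORF genes was 3 to 5 under every alternative, while the share of inducible probes over the array ran from 8.49% without background subtraction to 26.5% after spike-in scaling, against 12.7% as reported. The count was 5 where the downstream Ppp1r15b probe fell to 0 or below in control cells or where Atf3 was let in by dropping the limit on A. That call of Atf3 rests on control signals not well above background. The count was 3 only where a limit of 7 on A left 5 probes. The median change in log2 P/FM over the 8 probes, 1.75 as reported, was 2.36 with the processed signals and with the log ratio of Feature Extraction, 2.45 after loess, 2.26 after centring and 4.30 after spike-in scaling. It was 2.17 over 6 genes with probes averaged and 2.17 in the authors' table. The median change in A, also 1.75 as reported, was 0.76 with normexp, 1.50 without background subtraction, 1.40 with the processed signals, 1.26 after centring and 2.01 after spike-in scaling. It was 0.95 over the 5 probes with A above 7 and 2.55 over all 9 probes, Atf3 included, where fewer or more probes set the median.

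The change in log2 P/FM at the upstream Trib3 probe turned to 1.30 with normexp, 0.42 without background subtraction, 0.16 with the processed signals and 0.16 with the log ratio, 0.40 after loess, 0.46 after centring and 2.50 after spike-in scaling. At the downstream Trib3 probe it turned to 0.23 with normexp, 0.84 with the processed signals and 0.84 with the log ratio, 1.01 after loess, 0.066 after centring and 2.11 after spike-in scaling. The change in A turned to -0.23 (processed signals) and -0.39 (centring) for Atf5, and to -0.98 (normexp) and -0.013 (centring) for the upstream Ppp1r15b probe. Centring and spike-in scaling add the same amount to every probe of an array, so the whole shift under them is common to the array. The cause of the other turns was not tested. The median change in log2 P/FM over all probes was -0.61 as reported, 0.04 with normexp and -0.19 with the processed signals. It was -0.08 after loess, -0.10 after centring and 1.94 after spike-in scaling. In A it was 0.37 as reported, -0.59 with normexp, 0.01 with the processed signals and -0.12 after centring. Part of each shift under the other scalings is thus also common to the array. Of the values of single probes under the alternatives, 38 in log2 P/FM and 38 in A kept their sign and moved by less than the spread between probes of a gene, and 29 and 30 kept their sign and moved by more. These counts are not a measure of stability. Loess leaves A as it is, and keeping outlier spots changed no value of the set. The log ratio repeats the processed signals, and for genes with 1 probe the authors' table repeats the values reported here.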
